A study of Homo sapiens with 18 samples.

Results

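The 39 genes described here encode the antioxidant transcription factor NRF2 (gene NFE2L2), its inhibitor KEAP1, and enzymes and carriers that NRF2 is known to switch on or that make and use glutathione. They were found by symbol among 27630 gene symbols in messenger RNA profiles of 3 human cancer cell lines, and each line's table listed all 39. The list was chosen by symbol and pathway with the COLO 201 TPM in view, and PIR and GSTA4 were selected on their much higher values there after doxycycline. The COLO 201 values are therefore given as a description without p-values, and the number of members past the same threshold there serves as a description only. H1975 and RKO carry tests, since no change in them was named in the choice. Earlier results of these data were known when the members were chosen, so the H1975 and RKO counts may not be free of that choice.

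RKO and COLO 201 are human colorectal cancer lines and H1975 is a human non-small-cell lung cancer line. All 3 carried a lentiviral doxycycline-inducible short hairpin RNA against MUC1, the gene of a transmembrane mucin. Each line was grown in triplicate in medium with 10% serum, either with 0.1% DMSO as the vehicle or with 500 ng/ml doxycycline, which switches the hairpin on. There were 6 expression columns per line, 3 per arm and 18 in all. The columns headed DOX without a sign in RKO were taken to be vehicle, since DMSO and doxycycline are the only conditions named. Cells with a control hairpin given doxycycline were not analysed here, so what the hairpin does and what the drug does cannot be told apart. The treatment time is not given in the sources used here, and nothing says that the triplicates were separate experiments, so the p-values measure the spread between these columns, which may be technical.

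NRF2 is held in the cytoplasm and marked for degradation by KEAP1. Oxidants and electrophiles release it, and it then binds antioxidant response elements with a small MAF partner. Its targets supply cysteine and glutathione (SLC7A11, GCLC, GCLM), conjugate or reduce reactive compounds (glutathione transferases, NQO1, aldo-keto reductases), regenerate thioredoxin and peroxiredoxins, produce NADPH and handle heme and iron. KEAP1 or NFE2L2 mutations keep the pathway on in many lung cancers.

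MUC1 (ENSG00000185499.16) was lower in every doxycycline column of each line, with a change on the log2(TPM + 1) scale of -2.43 ± 0.08 in COLO 201. It fell by 3.46 ± 0.10 in H1975 (limma, adjusted p = 4.1e-11, n = 3 per arm) and dropped by 1.88 ± 0.43 in RKO (limma, adjusted p = 0.0027, n = 3 per arm). In RKO, MUC1 measured 15.2 TPM in vehicle column 1 but 1.24 and 1.03 TPM in the other vehicle columns, against 0.108, 0.105 and 0.204 TPM after doxycycline. Without vehicle column 1 the MUC1 change was -0.90, and the mean over the other 5 columns, 0.537 TPM, was below the minimum of 1 TPM set for testing. TPM is a transcript abundance scaled for gene length that sums to 1000000 in a column, and it keeps no read depth. Changes throughout are doxycycline minus vehicle on the log2(TPM + 1) scale with the standard error from limma, which understates changes of low genes. RKO vehicle column 1 stood apart from the other 5 RKO columns. In it 551 genes were above 1 TPM that were below 0.1 TPM in the other 5, against at most 3 genes in any other column of any line. COL1A1, COL1A2 and COL3A1, fibrillar collagens of fibroblasts, were at 54.6, 84.8 and 41.2 TPM there and at most 0.0086 TPM in the other RKO columns. The sum of 9 fibroblast and endothelial markers was 182.8 TPM there and at most 0.0199 TPM in any RKO doxycycline column. Where stated, RKO results are given both with and without that column. Column totals being fixed, a large class of RNA can also move all other genes. In RKO small noncoding RNA genes held 67.8% to 72.0% of TPM in vehicle and 70.8% to 78.7% in doxycycline columns. Mitochondrially encoded genes held 20.1% to 23.0% in vehicle and 16.9% to 18.6% in doxycycline columns of COLO 201. In H1975 they held 17.4% to 22.5% and 16.1% to 17.4%. The median change of all tested genes was -0.26 in RKO, 0.12 in COLO 201 and 0.06 in H1975. Values rescaled so that the median gene did not change are given beside the counts.

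The lines kept part of their labelled identity. COLO 201 had EPCAM at 814 to 946 TPM and VIL1, an intestinal brush border protein, at 90.7 to 119 TPM, with CDX2 at most 1.02 TPM. The sum of 6 colon markers in COLO 201 was 187 to 190 TPM in vehicle and 136 to 138 TPM in doxycycline columns. Of these markers VIL1 and LGALS4 were lower in every doxycycline column, and KRT20, CDH17 and CDX2 were higher. H1975 had the lung factor NKX2-1 at 22.4 to 25.6 TPM in vehicle and 15.1 to 16.9 TPM in doxycycline columns, with surfactant gene SFTPC at 0. Its sum of 5 lung markers was 30.8 to 35.5 TPM in vehicle and 19.9 to 24.1 TPM in doxycycline columns. RKO had CDX2 at 1.18 to 2.96 TPM but VIL1 and KRT20 at 0. Of the epithelial markers RKO had KRT18 at 21.5 to 48.4 TPM and EPCAM at 2.09 to 6.82 TPM, with CDH1 at most 0.024 TPM and KRT19 at most 0.029 TPM. The leukocyte marker PTPRC reached at most 0.067 TPM in any column. Among the 8 leukocyte and erythroid markers the sum was 1283 to 1291 TPM in vehicle and 692 to 741 TPM in doxycycline columns of COLO 201, with LYZ at 1217 to 1221 TPM and 592 to 624 TPM. In H1975 the sum was 159 to 167 TPM and 278 to 328 TPM, and in RKO 121 to 262 TPM and 392 to 489 TPM, nearly all of it CD68, a lysosomal protein. The fibroblast and endothelial sum in H1975, mostly COL1A1 and COL1A2, was 45.2 to 47.3 TPM in vehicle and 17.2 to 20.9 TPM in doxycycline columns. In bulk RNA fewer cells of a type and less RNA per cell cannot be told apart, and the part of these markers in the results below was not tested.

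PIR encodes pirin, an iron-binding nuclear protein, and GSTA4 encodes the glutathione transferase that conjugates 4-hydroxynonenal, a product of lipid peroxidation. Both stood far above the other members in COLO 201. PIR (ENSG00000087842.10, chrX:15384799-15493564, minus strand) was at 4.95, 4.84 and 4.35 TPM in the vehicle columns and 31.7, 28.1 and 31.3 TPM in the doxycycline columns. GSTA4 (ENSG00000170899.10, chr6:52977948-52995378, minus strand) was at 8.36, 9.35 and 9.43 TPM and 44.1, 48.0 and 42.8 TPM. Every doxycycline column lay far above every vehicle column for both genes. The change was 2.46 ± 0.063 for PIR and 2.19 ± 0.059 for GSTA4, places 5 and 10 from the top of 11566 genes tested in that line. The next members were OSGIN1 at 0.75 ± 0.10, in place 249, and ABCC2 at 0.71 ± 0.051, in place 296.

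In the other lines neither gene moved that way. In H1975 PIR was at 17.0, 19.8 and 18.4 TPM in vehicle and 13.0, 13.3 and 12.3 TPM in doxycycline columns, so that it fell (-0.48 ± 0.077, limma, adjusted p = 2.8e-04, n = 3 per arm). GSTA4 in H1975 was at 10.1, 10.7 and 10.9 TPM and 10.5, 9.91 and 9.72 TPM. The GSTA4 arms overlapped there and the change did not pass (-0.068 ± 0.075, limma, adjusted p = 0.50, n = 3 per arm). In RKO PIR was near 0, at 0.274, 0.0248 and 0.0174 TPM in vehicle columns and 0.0260, 0 and 0 TPM in doxycycline columns, with its highest value in vehicle column 1. GSTA4 in RKO was at 3.76, 6.72 and 5.86 TPM and 3.49, 4.61 and 3.85 TPM, with a change of -0.35 ± 0.19 (limma, adjusted p = 0.20, n = 3 per arm). Without vehicle column 1 and rescaled, that change was -0.29 (limma, adjusted p = 7.4e-04), so the RKO call for GSTA4 depended on that column. Differences between COLO 201 and the other lines were not tested.

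**Figure D1:**
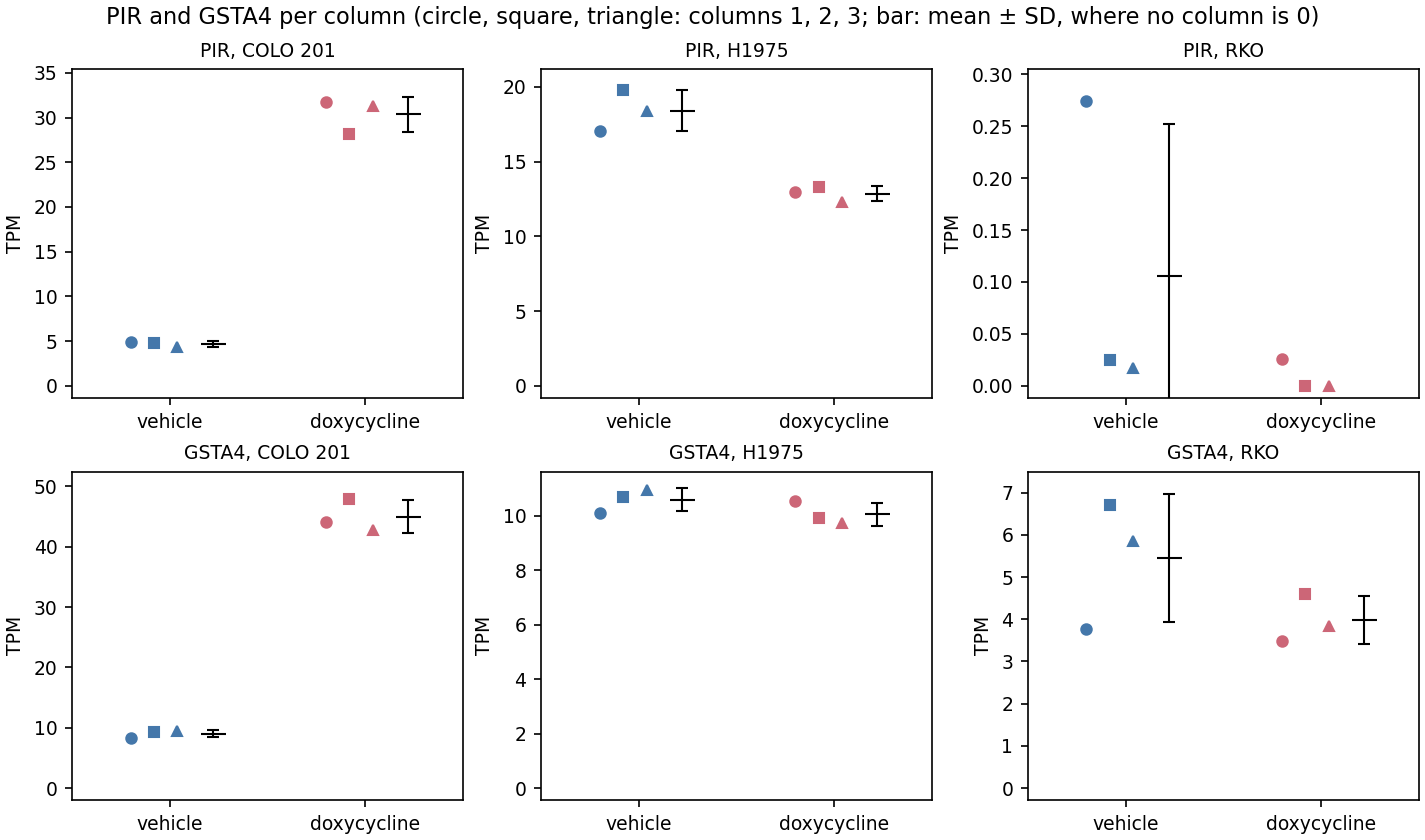
PIR (upper row) and GSTA4 (lower row) in TPM for each of the 3 vehicle and 3 doxycycline columns of COLO 201, H1975 and RKO; the bar is the mean ± SD of an arm, left out where a column is 0. In COLO 201 the doxycycline columns of PIR sit between 28.1 and 31.7 TPM against 4.35 to 4.95 TPM in vehicle; in H1975 the doxycycline columns of PIR lie below the vehicle columns and those of GSTA4 overlap them.

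The genes beside them were read from the same tables. ICK, a protein kinase gene that lies next to GSTA4 on the far side from the other alpha-class transferases (ENSG00000112144.15, chr6:53001279-53061802), was at 102 to 112 TPM in vehicle and 196 to 218 TPM in doxycycline columns of COLO 201, a change of 0.95. In H1975 ICK was lower in every doxycycline column (change -0.50), and so it was in RKO (change -0.76), both given as a description. FBXO9, the next gene, had changes of 0.17 in COLO 201, -0.17 in H1975 and -0.60 in RKO. GSTA1, GSTA3 and GSTA5 on the other side were at most 0.101 TPM in any COLO 201 column. Beside PIR, PIGA changed by 0.04 in COLO 201 with overlapping arms. BMX, whose annotated span overlaps that of PIR, was low in that line but moved as PIR did, from 0.0337 to 0.0767 TPM in vehicle columns and from 0.233 to 0.264 TPM in doxycycline columns.

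Promoter windows of 4 members are printed from RefSeq (GRCh38.p14), because these genes had the highest changes of the list in COLO 201 (PIR, GSTA4), the highest in H1975 (GSTO1) and the lowest in H1975 (GPX2). Each runs from 250 bases before to 50 bases after an annotated start, 5′ to 3′ on the gene's strand. Capitals mark matches to TGACNNNGC, the core of the antioxidant response element, or to its reverse complement GCNNNGTCA. The windows are PIR at chrX:15493284-15493583 (minus strand), GSTA4 at chr6:52995235-52995534 (minus strand), GSTO1 at chr10:104254642-104254941 (plus strand) and GPX2 at chr14:64942696-64942995 (minus strand).
PIR: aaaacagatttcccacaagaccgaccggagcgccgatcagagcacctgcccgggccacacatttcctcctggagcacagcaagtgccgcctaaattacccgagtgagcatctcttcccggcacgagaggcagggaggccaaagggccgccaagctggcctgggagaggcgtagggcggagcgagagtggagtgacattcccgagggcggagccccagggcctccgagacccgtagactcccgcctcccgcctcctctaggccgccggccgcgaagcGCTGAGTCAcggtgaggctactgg
GSTA4: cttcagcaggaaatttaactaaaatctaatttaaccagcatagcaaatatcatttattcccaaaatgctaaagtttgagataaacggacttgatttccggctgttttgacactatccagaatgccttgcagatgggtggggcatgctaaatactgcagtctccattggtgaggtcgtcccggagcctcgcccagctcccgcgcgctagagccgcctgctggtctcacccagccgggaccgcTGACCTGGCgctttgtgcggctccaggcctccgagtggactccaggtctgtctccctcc
GSTO1: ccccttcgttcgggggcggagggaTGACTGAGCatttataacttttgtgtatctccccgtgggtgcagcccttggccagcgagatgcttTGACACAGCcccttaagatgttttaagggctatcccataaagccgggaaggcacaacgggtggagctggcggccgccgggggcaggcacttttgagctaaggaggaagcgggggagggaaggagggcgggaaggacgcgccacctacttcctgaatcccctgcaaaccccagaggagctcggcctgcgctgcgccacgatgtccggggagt
GPX2: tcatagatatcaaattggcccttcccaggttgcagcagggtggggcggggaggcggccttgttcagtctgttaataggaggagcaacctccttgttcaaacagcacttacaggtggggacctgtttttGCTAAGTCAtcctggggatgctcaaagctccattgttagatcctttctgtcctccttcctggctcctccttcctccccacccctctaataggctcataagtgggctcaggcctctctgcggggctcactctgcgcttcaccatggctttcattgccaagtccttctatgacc

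The PIR window held 1 match, on the other strand, from 27 to 35 bases after the start. GSTA4 held 1 on the gene's strand, from -9 to -1. GSTO1 held 2 on the gene's strand, from -226 to -218 and from -161 to -153, and GPX2 held 1 on the other strand, from -122 to -114. Of the 39 members, 29 had a window and 10 had none in the table used. At least 1 window with the core was found for 11 of the 29 member genes (37.9%) and for 4384 of 27305 genes with a window (16.1%). Counted by window, 12 of 37 member windows (32.4%) and 4687 of all 35116 windows of that length (13.3%) held it. The members were chosen partly as known NRF2 targets, so the difference in these shares is a description. The other 7 member genes with the core were GCLM, GSTP1, KEAP1, ME1, MGST1, PGD and TXNRD1. A match is not a site, and no match says only that these letters are absent from the window.

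**Figure D2:**
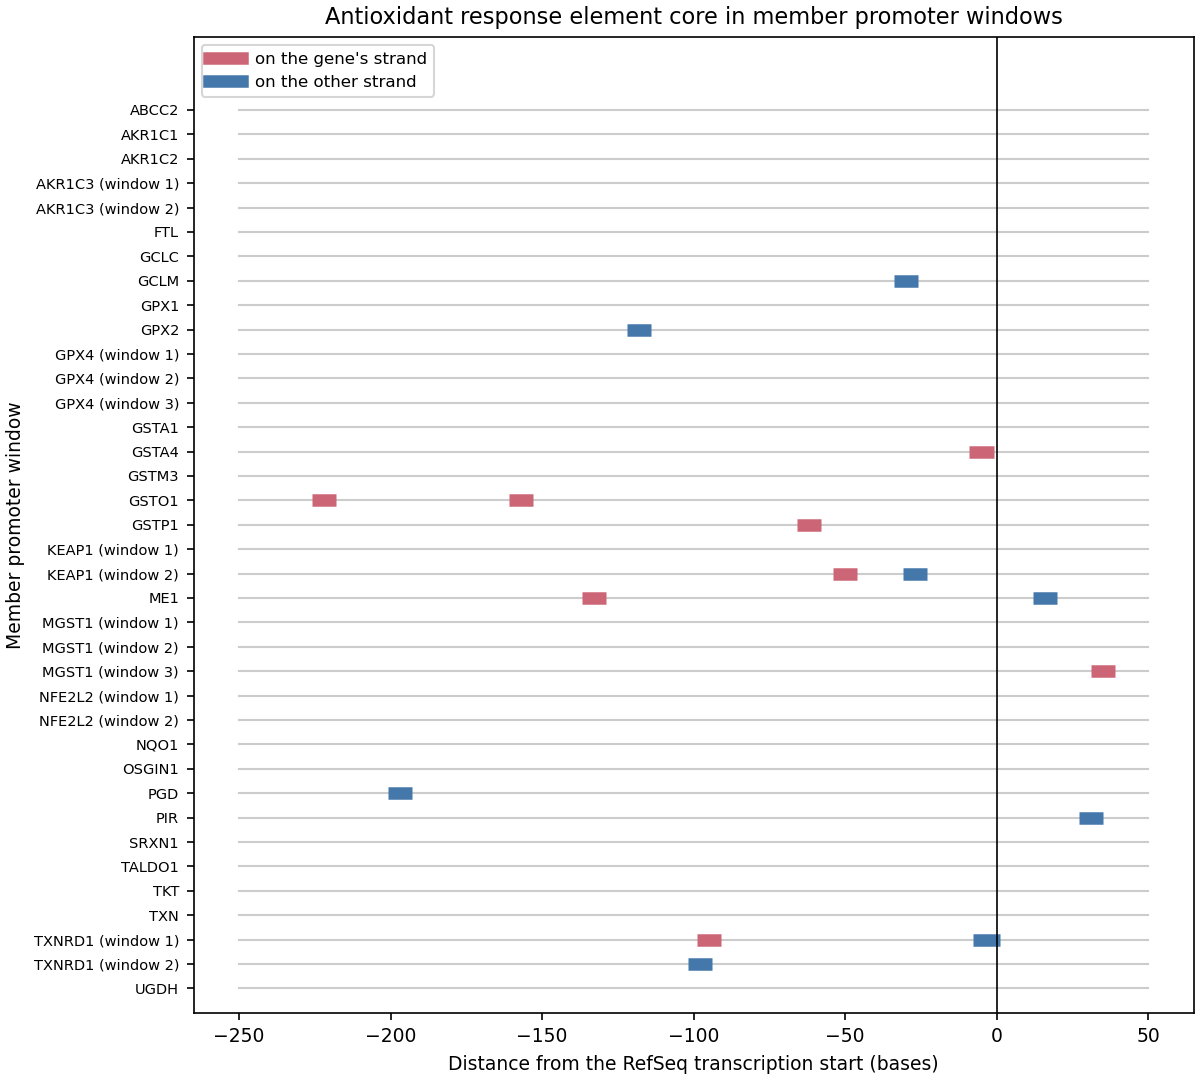
Matches to the antioxidant response element core in the 37 promoter windows of 29 member genes, by distance in bases from the RefSeq start (vertical line). Red marks a match on the gene's strand and blue one on the other strand; 12 of the 37 windows hold at least 1, among them those of PIR, GSTA4, GSTO1 and GPX2.

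In COLO 201, 34 of the 39 members passed the minimum of a mean of 1 TPM over the 6 columns. The other 5 (GSTA1, GSTM3, SRXN1, AKR1B10 and CES1) did not. Counted only as a description, 22 members lay past an adjusted p of 0.05 as higher after doxycycline and 6 as lower, beside 45.9% and 15% of all 11566 genes. The median change was 0.20 over the 34 members, 0.18 without PIR and GSTA4, and 0.12 over all genes tested. With the columns rescaled, 16 members were higher and 12 lower, beside 28.5% and 28.7% of all genes. Nothing is read from these counts, since this contrast served to choose the members.

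**Figure D3:**
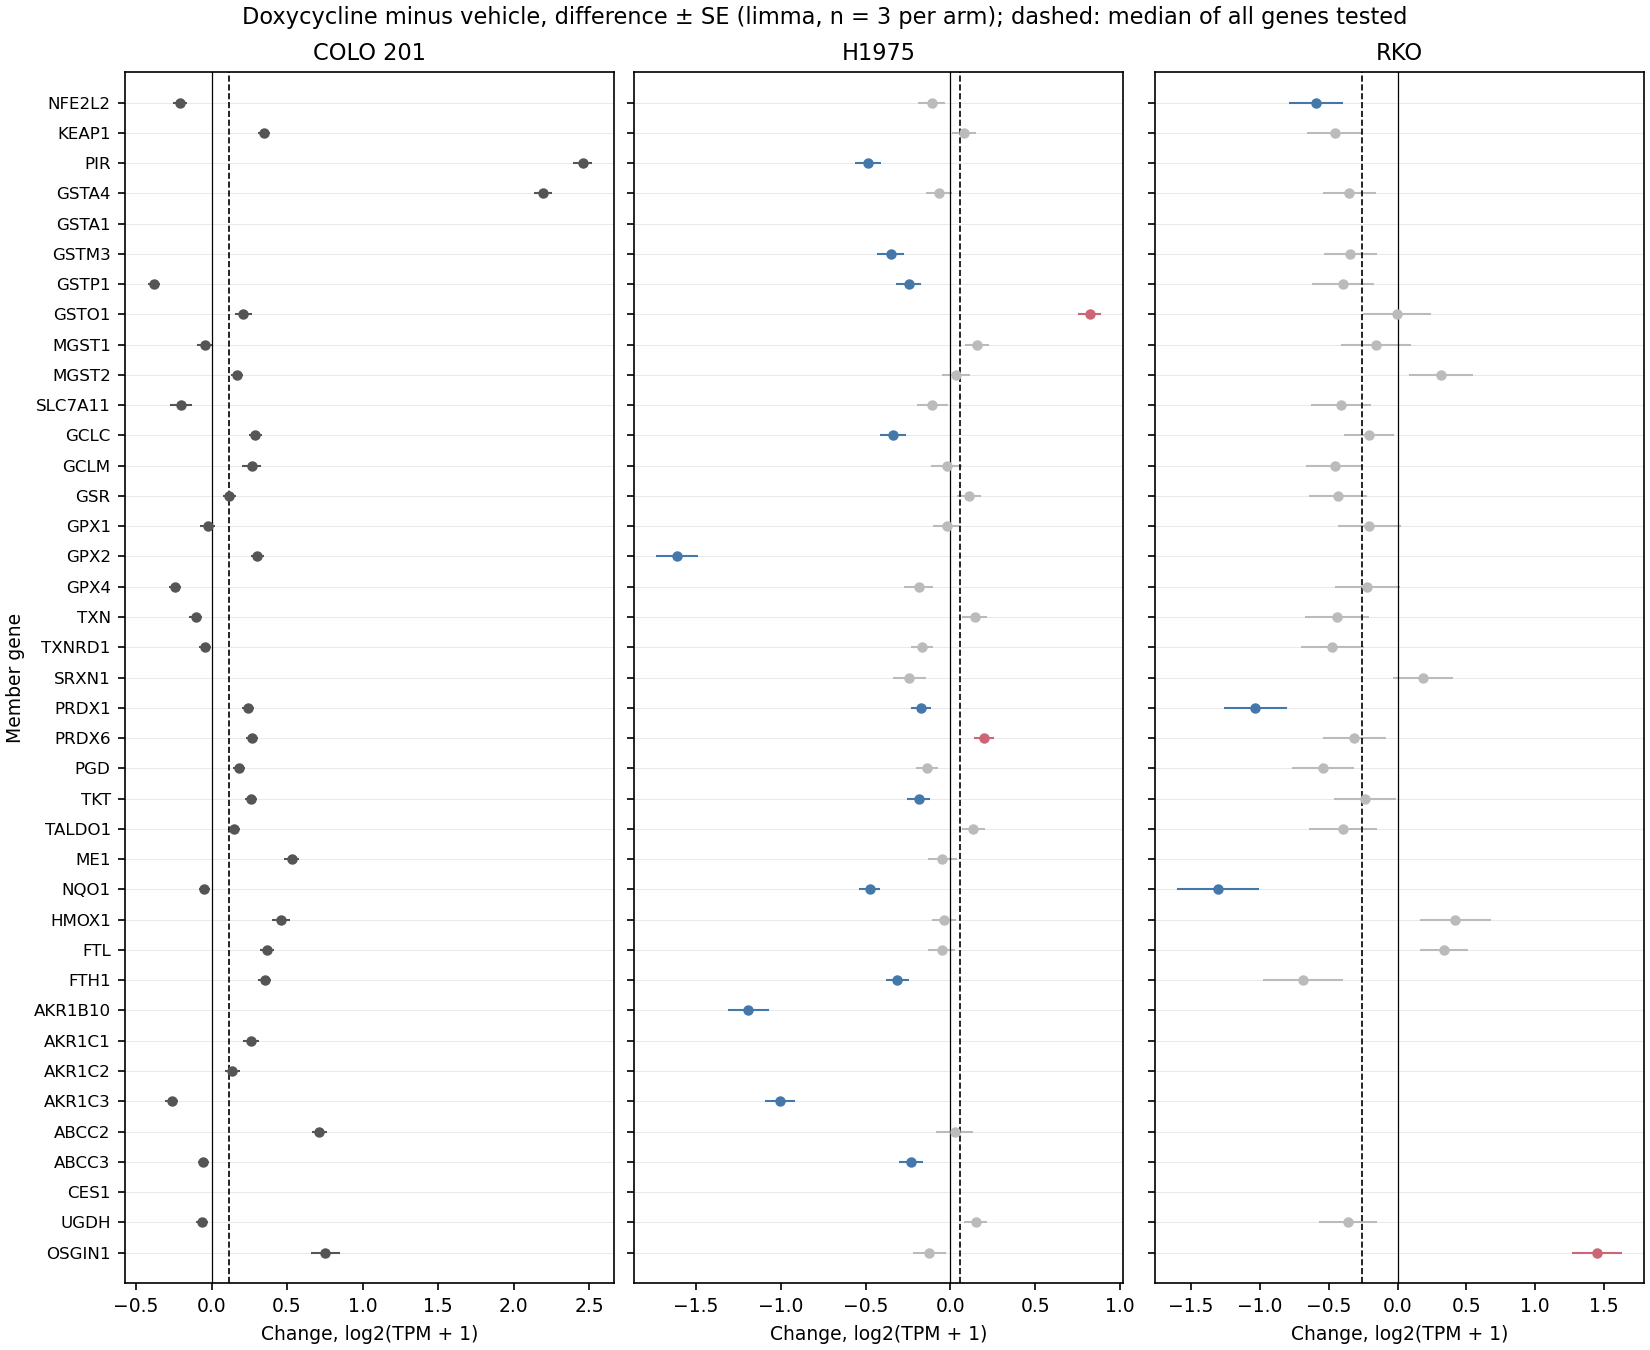
Change of each tested member (doxycycline minus vehicle, log2(TPM + 1)) with its limma standard error in COLO 201, H1975 and RKO; each panel has its own scale. Red marks higher and blue lower at an adjusted p under 0.05, pale grey marks members that did not pass, and COLO 201 is drawn dark grey because its values are a description. The dashed line is the median of all genes tested. PIR at 2.46 and GSTA4 at 2.19 stand apart in COLO 201, GPX2 at -1.61 is lowest in H1975 and OSGIN1 at 1.45 is highest in RKO.

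By role, the COLO 201 values were as follows, as deposited. Rescaling lowered the change of each of the 34 members by 0.091 to 0.12. NFE2L2 itself was lower, at 37.0, 37.7 and 35.6 TPM in vehicle and 32.1, 32.9 and 30.2 TPM in doxycycline columns (-0.21 ± 0.047). KEAP1 was higher, at 35.6, 36.3 and 35.2 TPM and 47.1, 44.3 and 45.6 TPM (0.35 ± 0.042). The arms of the regulator and of its inhibitor were apart, in opposite directions. Among the other glutathione transferases GSTP1, the most abundant, was lower (1454 ± 15.9 to 1116 ± 38.3 TPM, SD, n = 3 per arm, change -0.38 ± 0.042). GSTO1 (0.21 ± 0.057, rescaled 0.085) and MGST2 (0.17 ± 0.037, rescaled 0.045) were higher, and MGST1 had overlapping arms (-0.040 ± 0.053, rescaled -0.16). The catalytic and modifier subunits of glutamate-cysteine ligase, which makes the first step of glutathione synthesis, were both higher, GCLC by 0.29 ± 0.042 and GCLM by 0.27 ± 0.064. SLC7A11, the cystine carrier, was at 14.1, 15.04 and 14.2 TPM and 11.4, 14.2 and 11.8 TPM, with overlapping arms (-0.20 ± 0.072).

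Of the peroxidases, GPX2, the gut form, was higher in COLO 201 (976 ± 24.3 to 1206 ± 47.3 TPM, change 0.30 ± 0.044), GPX4, which reduces lipid hydroperoxides, was lower (253 ± 7.69 to 214 ± 7.94 TPM, change -0.24 ± 0.041), and GPX1 overlapped (-0.026 ± 0.052, rescaled -0.15). Glutathione reductase, GSR, differed by 0.12 ± 0.042, close to the median of all genes, and its rescaled change was -0.0052. The peroxiredoxins PRDX1 (0.24 ± 0.040) and PRDX6 (0.27 ± 0.040) were higher, thioredoxin (TXN) was lower (-0.11 ± 0.043, rescaled -0.23), and its reductase TXNRD1 overlapped (-0.044 ± 0.042, rescaled -0.17). Malic enzyme ME1, which produces NADPH, was at 13.8, 13.4 and 13.8 TPM in vehicle and 21.1, 20.3 and 19.2 TPM in doxycycline columns (0.53 ± 0.051). PGD, the NADPH-producing enzyme of the pentose phosphate pathway, had a change of 0.18 (rescaled 0.057). The enzymes of its non-oxidative branch, TKT and TALDO1, had changes of 0.26 (rescaled 0.14) and 0.15 (rescaled 0.025).

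Heme oxygenase HMOX1 was at 9.28, 9.05 and 10.3 TPM in vehicle and 12.7, 13.9 and 13.8 TPM in doxycycline columns of COLO 201 (0.46 ± 0.062). The ferritin chains that store the released iron were higher with it, FTL by 0.37 ± 0.044 and FTH1 by 0.35 ± 0.041. NQO1, the quinone reductase often used as the readout of NRF2, was at 357, 371 and 359 TPM and 355, 348 and 347 TPM (-0.049 ± 0.037, rescaled -0.17). Its arms were just apart, with the doxycycline columns lower, while the arm means of PIR and GSTA4 in the same columns differed 6.44-fold and 4.97-fold. The export pump ABCC2 was at 20.8, 21.6 and 21.0 TPM and 36.9, 36.1 and 32.9 TPM (0.71 ± 0.051), whereas ABCC3 had a change of -0.053 (rescaled -0.18) and UGDH, which makes UDP-glucuronic acid, one of -0.061 (rescaled -0.18). The aldo-keto reductases went both ways, with AKR1C1 at 0.26, AKR1C2 at 0.14 (rescaled 0.017) and AKR1C3 at -0.26. These 3 are close copies whose reads can be split uncertainly, and FTH1, FTL, TXN and PRDX1 have processed pseudogenes that can take some of theirs. OSGIN1, an oxidative stress-induced growth inhibitor, was at 1.66, 2.28 and 2.23 TPM and 3.86, 3.86 and 4.69 TPM.

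Of the 5 members below the minimum in COLO 201, SRXN1 was at 0.844, 0.587 and 0.677 TPM and 1.35, 0.945 and 1.04 TPM, and AKR1B10 at 0.749, 0.964 and 0.753 TPM and 0.454, 0.263 and 0.185 TPM. SRXN1, sulfiredoxin, was thus higher and AKR1B10 lower in every doxycycline column, at levels where TPM are imprecise. GSTA1, GSTM3 and CES1 were at most 0.249 TPM.

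H1975 was tested. In this line 35 members passed the minimum, and GSTA1, AKR1C1, AKR1C2 and CES1 did not. After doxycycline 2 members rose (5.71% of those tested) and 12 fell (34.3%), beside 23.9% and 14.6% of all 12359 genes (limma, adjusted p under 0.05). The other 21 did not pass. The median change was -0.11 over the members and 0.06 over all genes. With the columns rescaled 2 members rose and 15 fell, beside 18.5% and 19.9% of all genes. These counts carry no test of the list as a whole.

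The largest falls were in GPX2 and the aldo-keto reductases. GPX2 was at 3.17, 3.71 and 4.38 TPM in vehicle and 0.352, 0.843 and 0.494 TPM in doxycycline columns (-1.61 ± 0.12, limma, adjusted p = 4.7e-07, n = 3 per arm). AKR1B10, which reduces retinal and lipid aldehydes, was at 5.62, 7.71 and 6.00 TPM and 2.10, 2.83 and 1.86 TPM (-1.19 ± 0.12, limma, adjusted p = 6.8e-06, n = 3 per arm). AKR1C3, a steroid and prostaglandin reductase, was at 5.95, 6.03 and 6.15 TPM and 2.82, 2.53 and 2.21 TPM (-1.004 ± 0.087, limma, adjusted p = 1.6e-06, n = 3 per arm). In each of the 3 genes all doxycycline columns were below all vehicle columns. AKR1C1 and AKR1C2, below the minimum, were at 1.01, 1.20 and 1.21 TPM and 0.648, 0.729 and 0.874 TPM, and at 1.08, 1.19 and 1.06 TPM and 0.265, 0.226 and 0.159 TPM. Those columns were also lower after doxycycline, although these genes share reads with AKR1C3.

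NQO1 fell in H1975 from 487, 519 and 510.1 TPM to 362, 368 and 359 TPM (-0.48 ± 0.060, limma, adjusted p = 3.9e-05, n = 3 per arm). Its change was nearly equal to that of PIR in this line, and both genes had arms well apart. GCLC was at 51.7, 59.4 and 53.6 TPM and 42.9, 40.1 and 46.4 TPM (-0.34 ± 0.077, limma, adjusted p = 0.0038, n = 3 per arm), while GCLM (-0.023 ± 0.091, limma, adjusted p = 0.86) and SLC7A11 (-0.11 ± 0.090, limma, adjusted p = 0.37) did not pass. The ferritin heavy chain FTH1, which oxidises iron for storage, fell (10949.6 ± 599 to 8820.5 ± 579 TPM, change -0.31 ± 0.067, limma, adjusted p = 0.0026, n = 3 per arm), and with no minimum TPM its adjusted p was 0.072. The light chain FTL overlapped (-0.050 ± 0.080), as did HMOX1 (599 ± 47.8 to 584 ± 29.1 TPM, change -0.036 ± 0.071).

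Among the transferases, GSTO1 went the other way. GSTO1, an omega-class transferase that also reduces dehydroascorbate (ENSG00000148834.12, chr10:104235356-104267459, plus strand), rose from 112, 107 and 119.8 TPM to 208, 192 and 201 TPM (0.82 ± 0.067, limma, adjusted p = 8.1e-07, n = 3 per arm). Every doxycycline column was above every vehicle column. GSTM3, a mu-class transferase with close relatives, fell from 7.32, 6.99 and 6.63 TPM to 5.52, 5.26 and 4.99 TPM (-0.35 ± 0.079, limma, adjusted p = 0.0036, n = 3 per arm). MGST1 (0.16), MGST2 (0.033) and GSTA4 did not pass. The regulators NFE2L2 (73.5 ± 5.40 to 68.2 ± 6.25 TPM, change -0.11 ± 0.080, limma, adjusted p = 0.30) and KEAP1 (0.081 ± 0.068, limma, adjusted p = 0.37) had overlapping arms and did not pass.

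**Figure D4:**
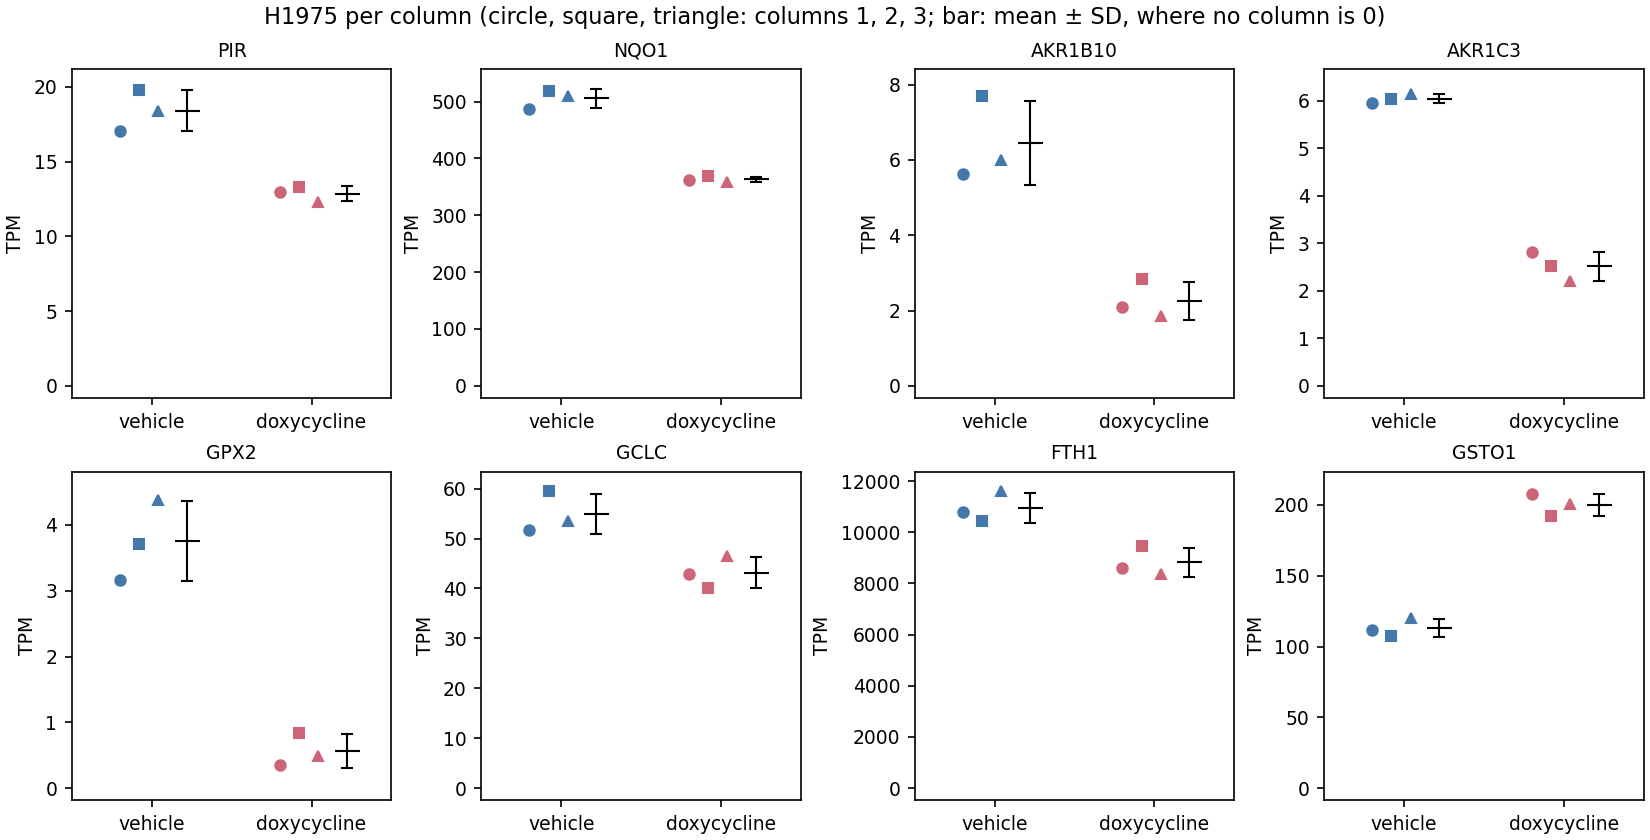
TPM of 8 members in each column of H1975, vehicle in blue and doxycycline in red, with the mean ± SD of each arm. For PIR, NQO1, AKR1B10, AKR1C3, GPX2, GCLC and FTH1 the 3 doxycycline columns lie below the 3 vehicle columns, and for GSTO1 they lie above, at 192 to 208 against 107 to 119.8 TPM.

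The calls of 8 of these 14 members held in every alternative run (AKR1B10, AKR1C3, GCLC, GPX2, GSTM3, GSTO1, NQO1 and PIR). PRDX6, a peroxiredoxin that reduces phospholipid hydroperoxides, rose by 0.20 ± 0.061 (limma, adjusted p = 0.019), but not without vehicle column 1 (adjusted p = 0.061) or doxycycline column 1 (adjusted p = 0.065). GSTP1 fell (-0.25 ± 0.076, limma, adjusted p = 0.020), but not without vehicle column 1 (adjusted p = 0.066), vehicle column 3 (0.070), doxycycline column 1 (0.062) or doxycycline column 3 (0.061), nor with no minimum TPM (0.090). ABCC3, an export pump, fell (-0.23 ± 0.071, limma, adjusted p = 0.019), but not without vehicle column 1 (adjusted p = 0.055), vehicle column 3 (0.086) or doxycycline column 1 (0.091). PRDX1 fell (-0.17 ± 0.058, limma, adjusted p = 0.031), but not without vehicle column 2 (adjusted p = 0.071), vehicle column 3 (0.088), doxycycline column 1 (0.12) or doxycycline column 2 (0.087), nor with no trend (0.057). The transketolase TKT fell (-0.19 ± 0.069, limma, adjusted p = 0.045), a call lost on leaving out any single column but doxycycline column 2 (adjusted p up to 0.21), with no minimum TPM (0.069) or with no trend (0.069). In the other direction, leaving out doxycycline column 2 brought GPX4 (change -0.29, adjusted p = 0.0022), SRXN1 (-0.30, 0.027), MGST1 (0.20, 0.032) and TXN (0.20, 0.037) past the threshold. TXNRD1 passed without vehicle column 1 (-0.21, adjusted p = 0.038) or doxycycline column 3 (-0.19, 0.030), and SLC7A11 without doxycycline column 3 (-0.19, 0.040).

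Fewer members were measurable in RKO. Of the 39 members 28 passed the minimum, and PIR, GSTA1, GPX2, ME1, the 4 aldo-keto reductases, ABCC2, ABCC3 and CES1 did not. After doxycycline 1 member rose (3.57% of those tested) and 3 fell (10.7%), beside 2.09% and 16.1% of all 10551 genes (limma, adjusted p under 0.05). These shares are near the background. The median change was -0.35 over the members and -0.26 over all genes. With the columns rescaled 3 members rose and 2 fell, beside 13.7% and 14.2% of all genes. Without vehicle column 1 and rescaled, 6 rose and 9 fell, beside 28.9% and 29.9% of all 10283 genes then tested.

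OSGIN1 rose most. It was at 2.15, 2.80 and 2.21 TPM in vehicle and 7.27, 8.93 and 8.47 TPM in doxycycline columns (1.45 ± 0.18, limma, adjusted p = 2.8e-06, n = 3 per arm), in place 13 of 10551 genes. Its arms were far apart, and of the 4 RKO calls it was the one that held in every alternative run. Its change was 1.40 without vehicle column 1 (limma, adjusted p = 6.7e-09). HMOX1 was at 34.3, 16.3 and 12.8 TPM and 21.2, 30.6 and 27.8 TPM, with vehicle column 1 above all 3 doxycycline columns and the other 2 vehicle columns below them. Its change was 0.42 ± 0.26 (limma, adjusted p = 0.25, n = 3 per arm) with all columns. Leaving out that vehicle column gave 0.82 (limma, adjusted p = 0.0056), and rescaled as well 1.12 (limma, adjusted p = 1.3e-07). FTL was at 2226, 2476 and 2006 TPM and 2487, 3049 and 2924 TPM, the arms just apart (0.33 ± 0.17, limma, adjusted p = 0.17, n = 3 per arm). Rescaled, the FTL change was 0.63 (limma, adjusted p = 0.0051).

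PRDX1, NQO1 and NFE2L2 fell in RKO. PRDX1, which reduces hydrogen peroxide, was at 360.4, 316 and 258 TPM in vehicle and 129, 182 and 144 TPM in doxycycline columns (-1.03 ± 0.23, limma, adjusted p = 0.0022, n = 3 per arm). The arms were apart, and without vehicle column 1 and rescaled it still fell (-0.60, limma, adjusted p = 8.8e-06). With no minimum TPM its adjusted p was 0.060. NQO1 was at 56.1, 17.1 and 14.4 TPM and 7.84, 11.3 and 8.78 TPM (-1.30 ± 0.30, limma, adjusted p = 0.0030, n = 3 per arm). The NQO1 change was smaller without vehicle column 1, at -0.71 (limma, adjusted p = 0.015), and rescaled as well -0.42 (limma, adjusted p = 4.2e-05). Rescaled with all columns, the NQO1 change was -1.03 (limma, adjusted p = 0.17). Leaving out doxycycline column 1 also ended the call (adjusted p = 0.16).

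NFE2L2 was at 12.8, 12.9 and 10.2 TPM and 6.04, 9.56 and 7.56 TPM (-0.59 ± 0.20, limma, adjusted p = 0.036, n = 3 per arm), with arms apart. That call was lost on leaving out vehicle column 1 (adjusted p = 0.071), vehicle column 2 (0.12), doxycycline column 1 (0.20) or doxycycline column 3 (0.16). It was -0.26 without vehicle column 1 and rescaled (limma, adjusted p = 0.0036). KEAP1 was also lower in every doxycycline column but did not pass (17.2 ± 1.58 to 12.4 ± 2.24 TPM, change -0.45 ± 0.20, limma, adjusted p = 0.11).

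FTH1, the ferritin heavy chain, was at 730.3, 269 and 231 TPM in vehicle and 197, 261 and 211 TPM in doxycycline columns (-0.69 ± 0.29, limma, adjusted p = 0.095, n = 3 per arm). The FTH1 change was -0.17 without vehicle column 1 (limma, adjusted p = 0.62) and -0.39 rescaled with all columns (limma, adjusted p = 0.53). Both choices together gave 0.14 (limma, adjusted p = 0.068), with the sign turned. ME1 was at 1.83, 0 and 0 TPM and listed at 0 in every doxycycline column, and ABCC3 was at 0.502, 0 and 0 TPM and likewise listed at 0. Vehicle column 1 was above all 5 other columns for 19 of the 39 members, within their range for 15 and below them for 5. Those above included PIR, ME1, the aldo-keto reductases, ABCC2 and ABCC3, which were below the minimum of 1 TPM. The share of all genes placed so was not counted, so nothing about the members is read from these counts. MGST1 (23.6, 52.5 and 43.8 TPM in vehicle columns) and MGST2 (5.70, 14.3 and 11.8 TPM) were among those lowest in vehicle column 1.

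**Figure D5:**
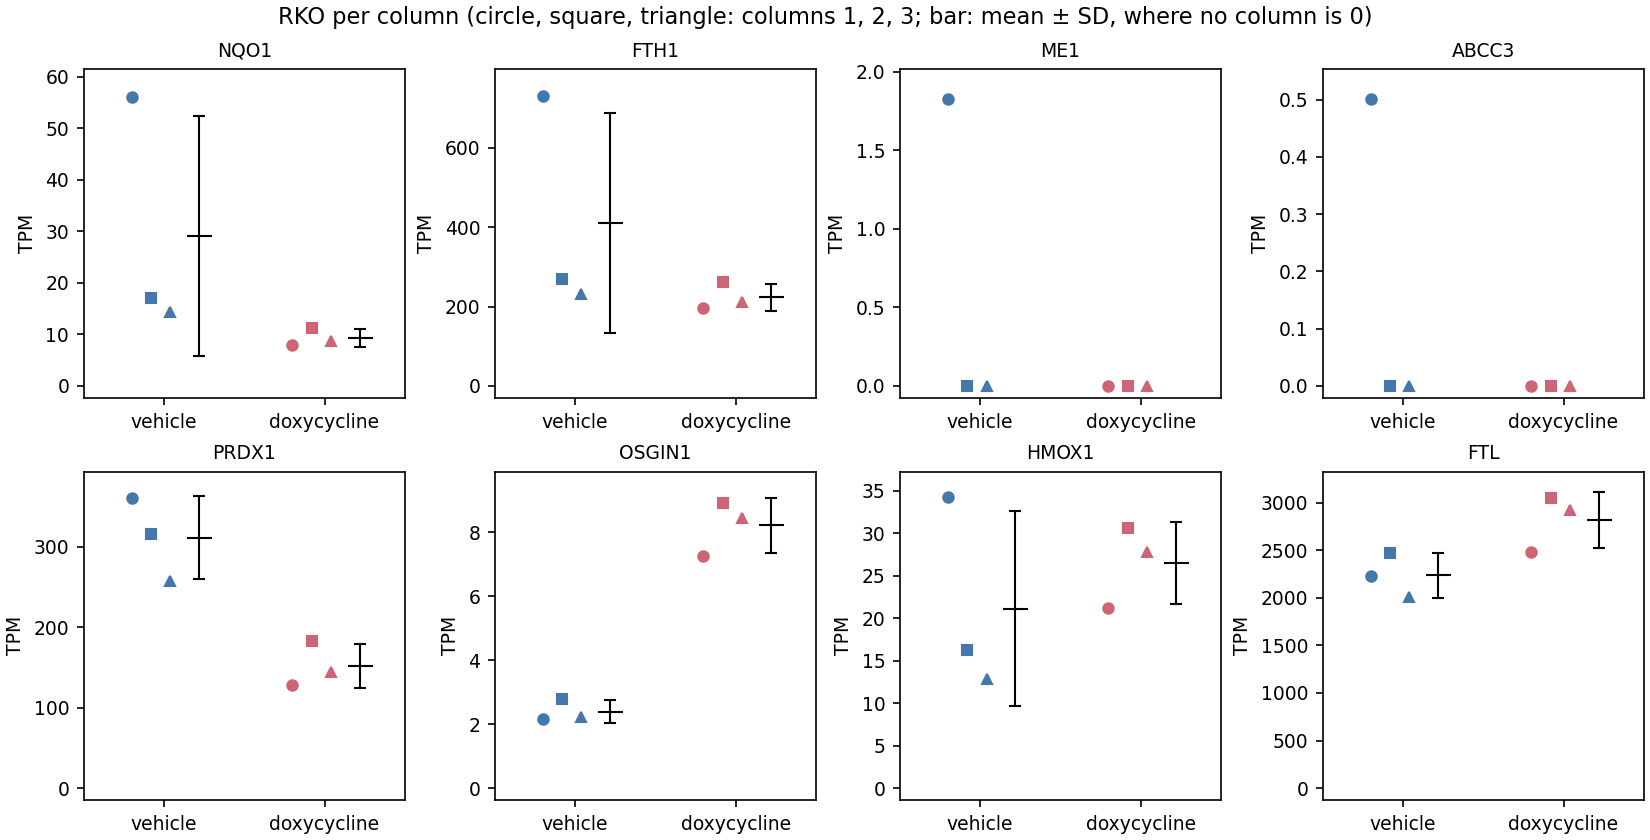
TPM of 8 members in each column of RKO, vehicle in blue and doxycycline in red, with circles for column 1, squares for column 2 and triangles for column 3, and the mean ± SD of each arm where no column is 0. Vehicle column 1 stands apart for NQO1, FTH1, ME1, ABCC3 and HMOX1, whereas for PRDX1 and OSGIN1 all 3 vehicle columns lie on one side of the doxycycline columns.

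Single columns changed further RKO calls. The members called lower numbered 1 without doxycycline column 1, 2 without doxycycline column 3, 5 without vehicle column 3 and 8 without doxycycline column 2. For these fits the share of all genes called was not counted. Without vehicle column 1 GSTA4 (-0.55, limma, adjusted p = 0.044) and TALDO1 (-0.65, limma, adjusted p = 0.039) passed as lower. Without vehicle column 2 FTH1 passed as lower (-0.89, adjusted p = 0.013). Without vehicle column 3 FTH1 (-1.0002, adjusted p = 0.0062) and GCLM (-0.63, 0.045) passed as lower. Without doxycycline column 2, which was the highest of its arm for all 28 members tested, GSR, KEAP1, PGD, TXN and TXNRD1 passed as lower (changes -0.67 to -0.56, adjusted p 0.030 to 0.049). How many of all genes were highest in that column was not counted. Small noncoding RNA genes held 70.8% of TPM in doxycycline column 2, against 78.7% and 75.8% in doxycycline columns 1 and 3. Whether these shares bore on the calls was not tested. Rescaled with all columns, GSR (-0.15, limma, adjusted p = 0.20), KEAP1 (-0.18, 0.22), TXN (-0.15, 0.36) and TXNRD1 (-0.19, 0.14) did not pass. Without vehicle column 1 and rescaled, GPX4 was higher (0.29, limma, adjusted p = 9.3e-04), against -0.22 ± 0.23 with all columns, which did not pass. SRXN1 (0.37) and MGST2 (0.26) were higher as well in that fit, and GSTP1 (-0.19), MGST1 (-0.18), TXNRD1 (-0.26), PGD (-0.18) and TALDO1 (-0.34) lower.

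The members that did not pass in RKO in any of these fits with all 6 columns or without vehicle column 1 included the core of glutathione synthesis. GCLC was at 7.19, 7.95 and 6.61 TPM and 5.22, 7.15 and 6.14 TPM (-0.21 ± 0.18, limma, adjusted p = 0.43). SLC7A11 changed by -0.41 ± 0.22 (limma, adjusted p = 0.18), GPX1 by -0.20 ± 0.23 and GSTO1 by -0.0025 ± 0.25, each with overlapping arms. With all 6 columns the standard errors of the tested members were 0.17 to 0.30 in RKO against 0.06 to 0.12 in H1975.

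Whether a change differed between H1975 and RKO was tested in 1 limma fit of both lines over 9293 genes, as the H1975 change minus the RKO change. Of 28 members tested 3 passed (10.7%), beside 22.8% of all genes. OSGIN1 had a difference of -1.57 ± 0.19 (limma, adjusted p = 1.3e-04), since it rose in RKO and was at 23.3, 23.6 and 24.0 TPM and 22.9, 24.5 and 18.0 TPM in H1975, with overlapping arms. PRDX1 had a difference of 0.86 ± 0.21 (limma, adjusted p = 0.010), falling more in RKO, and rescaled the difference was 0.51 (limma, adjusted p = 0.023). GSTO1 had a difference of 0.82 ± 0.27 (limma, adjusted p = 0.041), which rescaled was 0.47 and did not pass (adjusted p = 0.16). The count was 2 on leaving out any single H1975 column, RKO vehicle column 2 or RKO doxycycline columns 1 or 3, and it was 10 without RKO vehicle column 1, 5 without RKO vehicle column 3 and 11 without RKO doxycycline column 2. In those fits the share of all genes passing was not counted, so nothing is read from these counts. Without RKO vehicle column 1 and rescaled, 15 of 28 members passed (53.6%), beside 43.7% of 9076 genes. There GSTO1 differed by 0.72 ± 0.10 (limma, adjusted p = 5.4e-05), HMOX1 by -1.21 ± 0.10 (limma, adjusted p = 6.1e-07) and FTL by -0.76 ± 0.14 (limma, adjusted p = 5.5e-04), the last 2 higher in RKO. The NQO1 difference did not pass with all columns (0.83 ± 0.46, limma, adjusted p = 0.19) or in that fit (-0.12 ± 0.065, limma, adjusted p = 0.16).

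Set side by side, NQO1 and PRDX1 were called lower in both H1975 and RKO. PIR, GPX2, GCLC, FTH1, PRDX1 and TKT were called lower in H1975 and were higher in COLO 201. GSTO1 and PRDX6 were higher in both of those lines, and AKR1C3 and GSTP1 lower in both. OSGIN1 was higher in COLO 201 and RKO, and NFE2L2 lower in both.

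A further 80 genes of the NRF2, glutathione and thioredoxin systems were read in the same way. In COLO 201, as a description, 44 of 72 were past the threshold as higher (61.1%) and 9 as lower (12.5%), beside 45.9% and 15% of all genes. Rescaled, they were 31 (43.1%) and 14 (19.4%), beside 28.5% and 28.7%. GPX3, the secreted peroxidase, was at 5.89, 5.22 and 5.66 TPM in vehicle and 15.2, 14.8 and 17.2 TPM in doxycycline columns (1.34 ± 0.068). SQSTM1, the autophagy adaptor p62 that binds KEAP1, was at 95.2, 103 and 104 TPM and 204, 194 and 199 TPM (0.98 ± 0.043). UGT1A6, which shares exons with its family (0.75), and biliverdin reductase BLVRB (0.65) were higher, and AKR1B1 (-0.80), the glutathione-degrading CHAC1 (-0.78), ABCC4 (-0.39) and TRIM16 (-0.38) lower.

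In H1975 15 of 68 rose (22.1%) and 15 fell (22.1%), beside 23.9% and 14.6% of all genes (limma, adjusted p under 0.05). CHAC2 (0.79 ± 0.11, limma, adjusted p = 9.7e-05), MAFF, a small MAF partner (0.65 ± 0.077, limma, adjusted p = 2.3e-05), GGCT (0.52 ± 0.067, limma, adjusted p = 4.8e-05) and the stress-induced SESN2 (0.44 ± 0.075, limma, adjusted p = 4.5e-04) rose. The iron exporter ferroportin, SLC40A1, fell from 9.70, 9.72 and 10.1 TPM to 4.24, 4.59 and 3.80 TPM (-1.06 ± 0.082, limma, adjusted p = 4.8e-07, n = 3 per arm). TRIM16L (-0.96, limma, adjusted p = 7.0e-07), TRIM16 (-0.70, limma, adjusted p = 1.3e-05) and GSTT2 (-0.76, limma, adjusted p = 2.0e-04) also fell, and all 3 have close copies that can share their reads.

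In RKO 3 of 63 rose (4.76%) and 15 fell (23.8%), beside 2.09% and 16.1% of all genes (limma, adjusted p under 0.05). When rescaled, 10 rose (15.9%) and 10 fell (15.9%), beside 13.7% and 14.2%, so these shares are near the background. GLRX, glutaredoxin (0.93 ± 0.26, limma, adjusted p = 0.013), SESN2 (0.78 ± 0.22, limma, adjusted p = 0.015) and MAFF (0.70 ± 0.20, limma, adjusted p = 0.012) rose. Without vehicle column 1 the GLRX change was 0.59 and did not pass (limma, adjusted p = 0.061), while SESN2 (0.62, limma, adjusted p = 0.044) and MAFF (0.64, limma, adjusted p = 0.031) passed. Rescaled as well, the changes were 0.91, 0.92 and 0.92. The 15 that fell became 2 without doxycycline column 1, 6 without doxycycline column 3 and 8 without vehicle column 2, and the 3 that rose became 1 without doxycycline column 2 or 3. For these fits the share of all genes called was not counted. The transferrin receptor TFRC was at 51.1, 29.2 and 23.7 TPM and 10.2, 17.6 and 12.4 TPM (-1.26 ± 0.25, limma, adjusted p = 6.9e-04, n = 3 per arm), and without vehicle column 1 and rescaled its change was -0.65 (limma, adjusted p = 3.3e-05). GPX8 (-0.995, limma, adjusted p = 8.9e-04) and the carbonyl reductase CBR3 (-0.96, limma, adjusted p = 5.9e-04) fell.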

How the data were processed

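Stranded, polyadenylated RNA was sequenced, per the labels' protocols. The RKO profile differed in kind: small noncoding RNA genes held 67.8% to 78.7% of its TPM and 0% in COLO 201 and H1975. Mitochondrially encoded genes held 0% in RKO and 16.1% to 23.0% in the other lines. The reason was not tested. The submitters' processing notes name STAR, DESeq2 and the build GRCh38, without versions. The authors deposited 1 table of TPM per cell line, and the tables were normalized separately, so levels are compared within a line only. TPM keep no read totals, so the depth per sample is unknown.

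Samples were grouped by line, and arms were read from the column headings. Date-named entries of the COLO 201 table (28) were left out. Genes with a mean of at least 1 TPM were tested with limma 3.58.1 (R 4.3.3) on log2(TPM + 1), a pseudocount of 1, with a trend, two-sided, Benjamini-Hochberg adjusted over all genes of a line. Calls are adjusted p under 0.05. Scripts were tested on simulated data. The members, the 80 other genes and the markers were chosen with earlier results of these data known. Of the 80, up to 4 higher and 4 lower per line with the largest change and arms apart are named, and 1 of these is not reported here. Positions are from GENCODE release 29 (GRCh38), and promoters from RefSeq. Alternatives were pseudocounts of 0.1 and 5, no minimum and a minimum of 5 TPM, median-ratio rescaling, RNA classes removed, no trend, a column-number block and leaving out columns. Removing RKO vehicle column 1 together with rescaling was added because earlier results had shown that column to stand apart.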

Additional observations from a re-analysis of the deposited data

Results flagged for a closer look

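These changes differed between lines, as the change in one line minus that in the other on the log2(TPM + 1) scale. Between H1975 and RKO the difference itself was tested in the joint limma fit, and it passed for OSGIN1 (-1.57, adjusted p = 1.3e-04), PRDX1 (0.86, adjusted p = 0.010) and GSTO1 (0.82, adjusted p = 0.041). Rescaled, GSTO1 did not pass (0.47, adjusted p = 0.16) and PRDX1 had a difference of 0.51 (adjusted p = 0.023). For the others the difference was not tested, and how many of all genes would be flagged so was not counted. The others were members tested in both lines, with arms apart in opposite directions. Every doxycycline column lay on one side of every vehicle column in one line and on the opposite side in the other.

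Between COLO 201 and H1975 these were PIR (COLO 201 minus H1975, 2.94), GPX2 (1.91), FTH1 (0.66), GCLC (0.63), TKT (0.45), PRDX1 (0.42) and PGD (0.32). Between COLO 201 and RKO they were PRDX1 (COLO 201 minus RKO, 1.28), KEAP1 (0.80), PGD (0.72) and GSR (0.55). Rescaled, these were 0.86 for PRDX1, 0.40 for KEAP1, 0.31 for PGD and 0.15 for GSR, whose COLO 201 change was then -0.0052. In RKO the KEAP1, PGD and GSR changes did not pass the test, and the median gene there changed by -0.26. RKO vehicle column 1 was above all other RKO columns for PRDX1, KEAP1, PGD and GSR. Without that column and rescaled, PRDX1 (-0.60, limma, adjusted p = 8.8e-06) and PGD (-0.18, limma, adjusted p = 0.010) passed in RKO. KEAP1 (-0.090, limma, adjusted p = 0.19) and GSR (-0.082, limma, adjusted p = 0.16) did not pass in that fit. In H1975 the PGD change did not pass as deposited (-0.14 ± 0.064, limma, adjusted p = 0.10) and passed rescaled (-0.20, limma, adjusted p = 0.014). The rescaled PGD change in COLO 201 was 0.057. AKR1C1, AKR1C2, SRXN1 and, near 0, CES1 also had arms apart, higher in COLO 201 and lower in H1975. They are not listed because each was below the minimum of 1 TPM in COLO 201, H1975 or both.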

How the results depend on the processing

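Over 1377 single-member alternatives 1213 kept direction and side of the threshold, 65 lost and 54 gained a call, and 45 turned sign. Of these GSR in COLO 201 was past the threshold as deposited, and GPX4 in RKO without vehicle column 1 and rescaled (0.29). Rescaled, the turned values were -0.0052 for GSR in COLO 201, -0.025 for MGST2 and -0.0053 for ABCC2 in H1975, and in RKO 0.29 for GSTO1, 0.13 for MGST1, 0.047 for GCLC, 0.085 for GPX1, 0.071 for GPX4 and 0.054 for TKT. With small noncoding RNA genes removed they were 0.26, 0.10, 0.020, 0.053, 0.039 and 0.022 for the same 6 RKO genes, and with mitochondrially encoded genes removed -0.019 for MGST2 and -0.0019 for ABCC2 in H1975. Without RKO vehicle column 1 and rescaled, GSTO1 was 0.041, GCLC 0.064, GPX1 0.12, TKT 0.10, FTH1 0.14 and UGDH 0.039. On leaving out single columns values crossed 0 for GPX1 in COLO 201 (-0.071 to 0.021), in H1975 for MGST2 (-0.054 to 0.11), GCLM (-0.12 to 0.058), GPX1 (-0.098 to 0.058), ME1 (-0.12 to 0.028), HMOX1 (-0.077 to 0.028), FTL (-0.13 to 0.022), ABCC2 (-0.061 to 0.094) and OSGIN1 (-0.21 to 0.00090), and in RKO for GSTO1 (-0.27 to 0.16), MGST1 (-0.49 to 0.075) and MGST2 (-0.039 to 0.56). The cause was not tested in any case here. In COLO 201 the members lower were 12 rescaled and 10 with mitochondrially encoded genes removed, against 6, and the other pathway genes lower were 14 rescaled, against 9. In H1975 the members higher were 1 with the replicate block, against 2, with PRDX6 (adjusted p = 0.068), PRDX1 (0.0996), TKT (0.0995) and ABCC3 (0.060) not passing under that block (limma). The members higher there were 1 to 4 on leaving out single columns. In RKO the members higher, 1 with all columns, were 3 rescaled, 3 with small noncoding RNA genes removed, 6 without vehicle column 1 and rescaled, and 1 to 2 on leaving out single columns. The RKO members lower, 3 with all columns, were 0 with no minimum TPM (limma, 7 members in either direction at an unadjusted p under 0.05), 9 without vehicle column 1 and rescaled, and 1 to 8 on leaving out single columns. Within a line the share of all genes called was counted only as deposited, rescaled and, in RKO, without vehicle column 1 and rescaled. Counts from the other fits are not read as results about the members.

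The other pathway genes higher in RKO, 3 with all columns, were 0 with no minimum TPM (limma, 19 genes in either direction at an unadjusted p under 0.05), 10 rescaled, 8 with small noncoding RNA genes removed, 22 without vehicle column 1 and rescaled, and 1 to 3 on leaving out single columns. Those lower, 15 with all columns, were 0 with no minimum TPM (the same 19 genes), 8 with a pseudocount of 5, 9 with a minimum of 5 TPM, 9 with no trend and 2 to 14 on leaving out single columns. The lowest value came without doxycycline column 1. As for the members, nothing is read from counts of fits in which the share of all genes was not counted.

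The members that differed between H1975 and RKO, 3 as reported, were 5 with a pseudocount of 5, 8 with no minimum TPM, 5 with a minimum of 5 TPM, 6 rescaled, 6 with small noncoding and mitochondrially encoded RNA genes removed, 5 with no trend, 8 with the replicate block, 15 without vehicle column 1 and rescaled, and 2 to 11 on leaving out single columns. The share of all genes passing was 22.8% as reported and 43.7% without vehicle column 1 and rescaled. It was not counted in the other fits, so nothing is read from their counts. Vehicle and doxycycline columns of 1 number deviated together with correlations of -0.05, 0.15 and 0.28 in COLO 201, 0.16, -0.42 and -0.35 in H1975, and 0.29, 0.27 and -0.01 in RKO. Columns of unlike number had -0.28 to 0.18 in COLO 201, -0.33 to 0.46 in H1975 and -0.32 to 0.20 in RKO. These values do not settle whether columns of 1 number were paired. Under the replicate block NQO1 (adjusted p = 0.11) and NFE2L2 (0.057) did not pass in RKO (limma). GSTP1 (-0.40, adjusted p = 0.043) and TXNRD1 (-0.47, 0.034) passed there as lower (limma). With 3 columns per arm and no read counts, small changes of low genes could not be resolved.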

Other observations

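TRIM16 was lower in the doxycycline columns of all 3 lines, which was noticed after its values were seen. TRIM16, a ubiquitin ligase with a close copy in TRIM16L, was at 7.51, 6.91 and 6.26 TPM and 4.97, 5.10 and 5.12 TPM in COLO 201, 19.9, 19.2 and 22.4 TPM and 11.9, 12.7 and 12.1 TPM in H1975, and 4.21, 2.37 and 1.72 TPM and 1.17, 1.51 and 1.37 TPM in RKO. Its RKO change did not pass when rescaled (limma, adjusted p = 0.21). SESN2 had arms apart in every line, lower after doxycycline in COLO 201 (4.98, 5.11 and 4.93 TPM and 3.96, 3.80 and 3.92 TPM) and higher in H1975 (32.5, 33.9 and 37.7 TPM and 49.0, 48.8 and 44.8 TPM) and RKO (10.9, 16.9 and 14.1 TPM and 18.2, 29.1 and 26.9 TPM).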
